A study of Mus musculus with 13 samples.

Results

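T cells recognise antigen through a receptor whose variable chains signal by way of the CD3 subunits, and 9 genes of that receptor and its signalling were described in injured mouse muscle: Cd3e, Cd3d, Cd3g, Cd4, Cd8a, Lck, Zap70, Il7r and Foxp3. They were taken by gene symbol, and all 9 were among the 14911 genes with values. Each value came from whole hamstring muscle of 1 female C57BL/6 mouse, sampled on day 4 after cardiotoxin, a cobra venom protein that kills myofibres, was injected into the muscle at 0.32 mg/kg. Every mouse received cardiotoxin. In the saline group 4 mice (replicates 1, 2, 3 and 5) were given daily intraperitoneal saline, and in the dexamethasone group 9 mice (replicates 1 to 9) were given the synthetic glucocorticoid dexamethasone daily at 10 mg/kg by the same route. No group was uninjured, and the labels give no ages. The submitters left out the saline mouse numbered 4, whose muscle had formed bone, whereas every dexamethasone mouse had such bone. The saline libraries were thus selected on bone, and effects of the drug and of bone formation cannot be told apart.

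The CD3 chains are invariant partners of the antigen-binding receptor. CD4 and CD8 are coreceptors that bind major histocompatibility molecules and bring the kinase LCK to the receptor; LCK phosphorylates the CD3 and zeta chains, and ZAP-70 docks there and passes the signal to the adaptors LAT and SLP-76. The interleukin 7 receptor, of which Il7r encodes the alpha chain, sustains naive and memory T cells, and FOXP3 is the transcription factor of regulatory T cells, which enter injured muscle and aid its repair. Some of these genes are also used outside T cells: Lck and Zap70 by natural killer cells, Cd4 and Cd8a by subsets of mouse dendritic cells, and Il7r by innate lymphoid cells and lymphocyte precursors.

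The CD3 genes lie side by side on chromosome 9 of the mouse build mm10: Cd3g (minus strand) at 44969572 to 44980431, Cd3d (plus strand) at 44981769 to 44987052 and Cd3e (minus strand) at 44998735 to 45009663. Together they span 40092 bases, with 1337 bases between Cd3g and Cd3d and 11682 between Cd3d and Cd3e. Il7r is on chromosome 15 at 9506159 to 9529941 (minus strand). The promoters of these genes are shown because the 3 neighbours fell together whereas Il7r rose. Each window runs from 250 bases before to 50 bases after the RefSeq transcription start (GRCm38.p6, the assembly of mm10), written 5′ to 3′ on the strand of the gene: chr9:45009562-45009861 for Cd3e, chr9:44981536-44981835 for Cd3d, chr9:44980382-44980681 for Cd3g and chr15:9529827-9530126 for Il7r. Capitals mark letters that match a searched motif on either strand.
Cd3e: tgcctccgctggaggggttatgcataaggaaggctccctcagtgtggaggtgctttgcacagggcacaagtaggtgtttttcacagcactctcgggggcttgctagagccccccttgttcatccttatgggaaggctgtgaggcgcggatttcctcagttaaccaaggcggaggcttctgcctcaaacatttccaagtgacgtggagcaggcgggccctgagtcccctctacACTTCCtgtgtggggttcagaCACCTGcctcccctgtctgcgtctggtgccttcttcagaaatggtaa
Cd3d: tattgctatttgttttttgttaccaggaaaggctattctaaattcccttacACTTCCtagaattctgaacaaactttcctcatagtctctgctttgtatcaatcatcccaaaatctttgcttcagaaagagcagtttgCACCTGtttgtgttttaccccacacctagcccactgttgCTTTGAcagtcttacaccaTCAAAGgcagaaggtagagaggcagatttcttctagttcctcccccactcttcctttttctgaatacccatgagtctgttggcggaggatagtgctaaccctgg
Cd3g: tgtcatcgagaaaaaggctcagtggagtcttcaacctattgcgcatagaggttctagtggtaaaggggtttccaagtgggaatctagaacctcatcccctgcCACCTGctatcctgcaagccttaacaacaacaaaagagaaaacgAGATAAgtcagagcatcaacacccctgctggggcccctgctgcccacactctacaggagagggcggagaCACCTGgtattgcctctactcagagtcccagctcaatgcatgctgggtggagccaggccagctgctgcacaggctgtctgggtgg
Il7r: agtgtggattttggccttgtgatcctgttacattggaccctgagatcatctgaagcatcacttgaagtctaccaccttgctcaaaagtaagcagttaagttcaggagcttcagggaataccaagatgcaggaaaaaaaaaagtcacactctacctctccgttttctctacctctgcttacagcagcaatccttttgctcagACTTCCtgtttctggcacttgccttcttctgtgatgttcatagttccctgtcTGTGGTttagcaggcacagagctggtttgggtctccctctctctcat

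Motifs of 5 lymphoid factor families and the glucocorticoid receptor palindrome were searched on both strands, and 32851 RefSeq promoter windows of that length gave the background. The ETS letters GGAAGT were matched 1 time each in Cd3e, Cd3d and Il7r, and 23.8% of all windows held them. The E-box letters CAGGTG were matched 1 time in Cd3e, 1 time in Cd3d and 2 times in Cd3g, against 20.2% of all windows. Cd3d also held 2 matches to the TCF letters CTTTGA, which 16% of windows held. Cd3g held 1 match to the GATA letters AGATAA, present in 11.2% of windows. Il7r held 1 match to the RUNX letters TGTGGT, present in 16.8% of windows. RefSeq windows were found for 8 of the 9 genes, 12 windows in all, and 0 of them held the glucocorticoid receptor palindrome, which 0.475% of all windows held. Cd4 had no entry.

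Of the 9 genes, 8 were lower and 1, Il7r, was higher with dexamethasone at an adjusted p under 0.05 (limma with Benjamini-Hochberg adjustment over all 14911 genes). Over all genes 48.1% were called, 22.9% lower and 25.2% higher. The falls ranged from 2.04-fold for Foxp3 to 7.52-fold for Cd3d, and the median log2 fold change of the 9 genes was -2.13, against 0.0071 for all genes. In 7 of the 9 genes every dexamethasone library lay below every saline library, which was so for 12.9% of all genes. Whole muscle was measured, so fewer T cells and less RNA per T cell cannot be told apart. The p-values rest on the spread between mice.

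**Figure D1:**
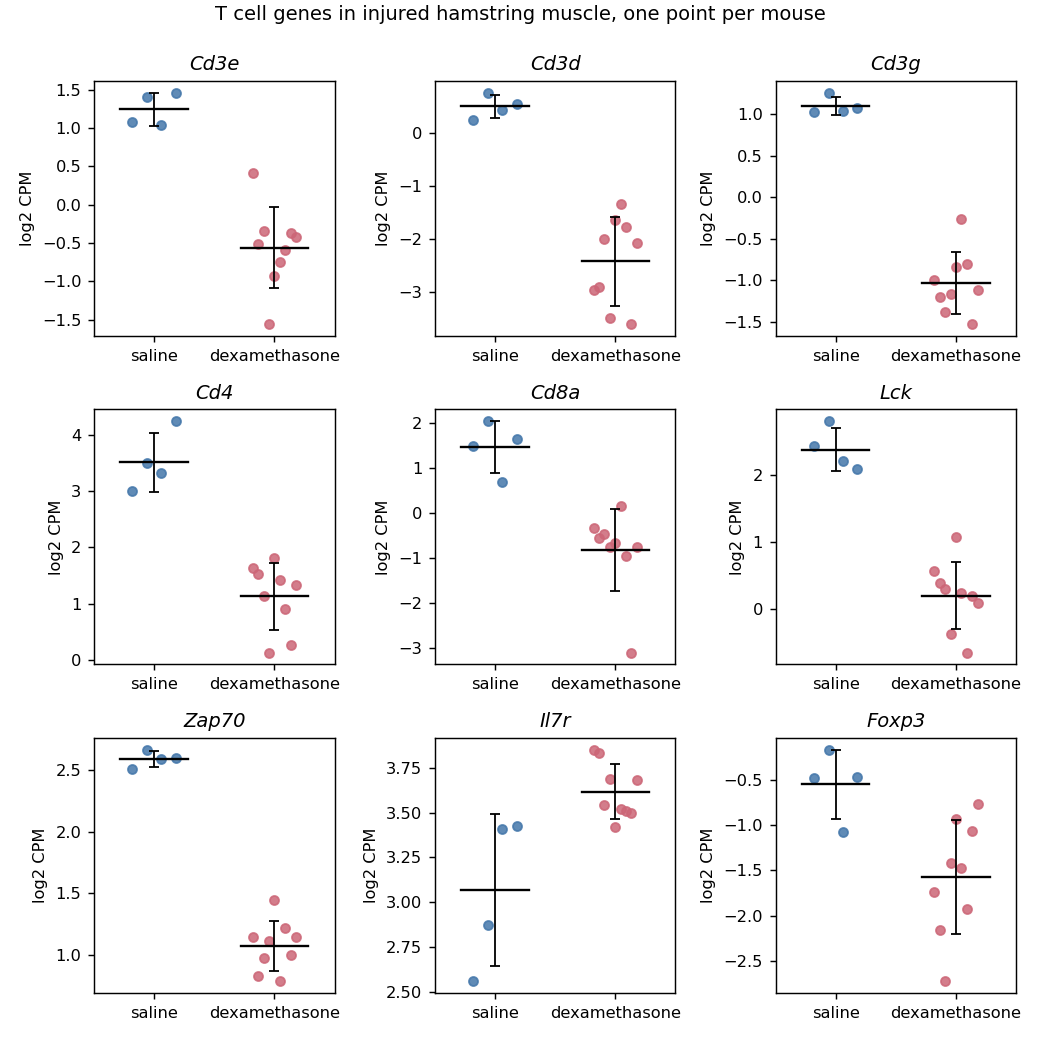
Level of each of the 9 genes in log2 CPM (read counts scaled for depth, on a log2 scale), 1 point per mouse, with the mean (line) and SD (bar) of 4 saline and 9 dexamethasone mice; each panel has its own axis. The groups do not overlap in 7 panels, 6 of 9 dexamethasone points of Foxp3 lie below every saline point, and 8 of 9 dexamethasone points of Il7r lie above every saline point.

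Among the CD3 chains, Cd3e, the epsilon chain that every receptor carries, stood at 1.08, 1.40, 1.04 and 1.46 log2 CPM in saline replicates 1, 2, 3 and 5. In dexamethasone libraries it ran from -1.56 over a median of -0.51 to 0.41. The groups did not overlap. Dexamethasone replicate 1, at 0.41 log2 CPM (46 reads), came closest to saline replicate 3, the lowest saline library at 1.04 (58 reads). Cd3e fell by 1.81 on the log2 scale, with an SE of 0.27, or 3.50-fold (adjusted p = 5.80e-05).

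Cd3d, the delta chain, had 30, 40, 38 and 47 reads in the saline libraries, or 0.25, 0.75, 0.43 and 0.54 log2 CPM. With dexamethasone it had 2 to 11 reads with a median of 7, or -3.60 to -1.35 log2 CPM with a median of -2.07. All 9 dexamethasone libraries were below the saline libraries, and replicates 4 and 8 were lowest with 2 reads each. Its log2 fold change of -2.91 ± 0.42 (SE; adjusted p = 4.78e-05) depends on the 0.5 read offset of the deposited values; the mean CPM without that offset was 7.06-fold lower.

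Cd3g, the gamma chain, was the least variable of the 3. It stood at 1.03, 1.26, 1.04 and 1.07 log2 CPM in saline and at -1.53 to -0.26 with a median of -1.12 in dexamethasone, where replicate 6 was highest. The groups did not overlap, and the fall was 4.38-fold (log2 fold change -2.13 ± 0.22, SE; adjusted p = 2.38e-06).

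Cd4 (chromosome 6, 124864693 to 124888247, minus strand), the coreceptor of helper T cells, was the most abundant of the genes per kilobase in saline muscle. It read 207, 271, 284 and 619 times in the saline libraries and 30 to 108 times, with a median of 78, in the dexamethasone libraries. Saline replicate 5 was highest, at 4.25 log2 CPM against 3.01 to 3.50 in the other saline libraries, and dexamethasone replicates 4 and 8 were lowest at 0.12 and 0.27. Every dexamethasone library was below every saline library, and the log2 fold change was -2.39 ± 0.30 (SE; adjusted p = 1.23e-05).

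Cd8a (chromosome 6, 71373427 to 71379171, plus strand), a chain of the coreceptor of cytotoxic T cells, had 71, 98, 45 and 101 reads in saline and 3 to 32 with a median of 18 in dexamethasone. On the log2 CPM scale the saline libraries stood at 1.47, 2.03, 0.67 and 1.64. Dexamethasone replicate 8 lay far below the others at -3.11, the other 8 ranging from -0.97 to 0.15, and the groups did not overlap. The fall was 4.90-fold (log2 fold change -2.29 ± 0.44, SE; adjusted p = 0.000525).

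The ratio of the coreceptor genes did not pass a test on the deposited scale. Cd4 minus Cd8a was 2.06 ± 0.65 log2 units in saline (SD, n = 4) and 1.97 ± 0.72 in dexamethasone (SD, n = 9), a difference of -0.098 with an exact permutation p of 0.815 over 715 splits, two-sided. With 1 added to CPM before the logarithm the difference was -0.72 (exact permutation p = 0.00839), a scale that by construction shrinks the change of the less abundant gene. Whether numbers of helper and cytotoxic T cells changed in proportion was not tested.

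Lck (chromosome 4, 129548344 to 129573641, minus strand), the kinase that starts the signal, stood at 2.43, 2.81, 2.20 and 2.09 log2 CPM in saline, from 131 to 168 reads. With dexamethasone it stood at -0.66 to 1.08 with a median of 0.24, from 20 to 62 reads. Replicate 5 was the highest of the dexamethasone libraries and still below every saline library. The log2 fold change was -2.18 ± 0.25 (SE; adjusted p = 6.17e-06).

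Zap70 (chromosome 1, 36761798 to 36782821, plus strand), the kinase that docks on the phosphorylated chains, varied little between mice. Its saline values were 2.51, 2.66, 2.59 and 2.59 log2 CPM, and its dexamethasone values ran from 0.79 to 1.44 with a median of 1.11. The groups were over 1 log2 unit apart at their nearest points. Zap70 fell 2.86-fold (log2 fold change -1.52 ± 0.12, SE), the smallest fall of the 7 genes whose groups did not overlap, and had the lowest adjusted p of the 9 (2.29e-07).

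Foxp3 (chromosome X, 7579676 to 7595243, plus strand) had the fewest reads of the 9 genes in saline, with 18, 21, 13 and 23 reads in the saline libraries and 4 to 18 with a median of 10 in the dexamethasone libraries. In log2 CPM it stood at -0.48, -0.16, -1.08 and -0.47 in saline and at -2.73 to -0.76 with a median of -1.48 in dexamethasone. The groups overlapped: dexamethasone replicates 5, 8 and 9 lay above saline replicate 3. The fall was 2.04-fold (log2 fold change -1.03 ± 0.35, SE; adjusted p = 0.0230), and it missed the threshold without saline replicate 1 (adjusted p = 0.0541), 2 (0.0798) or 5 (0.0520).

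Il7r moved the other way. Saline replicates 1, 2, 3 and 5 stood at 2.56, 2.87, 3.41 and 3.42 log2 CPM (151 to 349 reads), and dexamethasone libraries at 3.42 to 3.85 with a median of 3.54 (317 to 505 reads). The groups overlapped: saline replicate 5 (3.423) lay just above dexamethasone replicate 5 (3.421), the lowest of its group. Saline replicates 1 and 2 were low, and saline replicate 3 came close to the dexamethasone range. In all, 8 of 9 dexamethasone libraries were above every saline library. The rise was 1.46-fold (log2 fold change 0.55 ± 0.14, SE; adjusted p = 0.00386). It was 0.38 without saline replicate 1 and 0.67 without saline replicate 5, and stayed past the threshold in each of 22 alternatives.

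**Figure D2:**
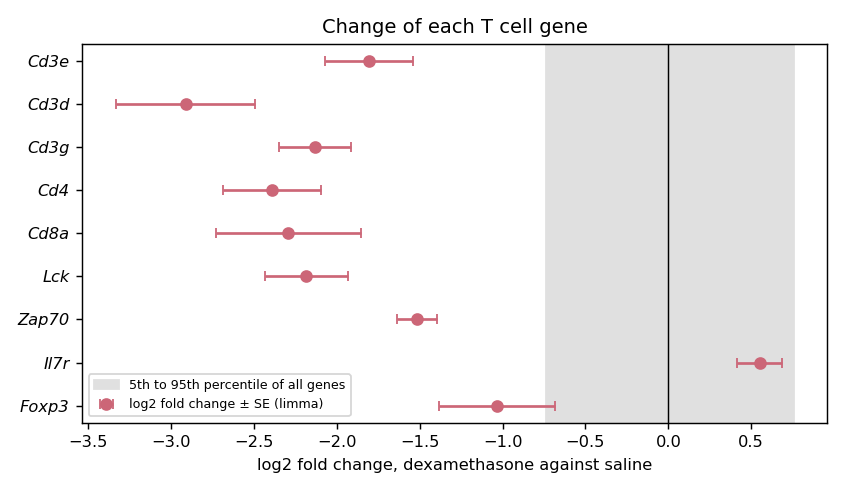
Log2 fold change of dexamethasone against saline for each of the 9 genes (points, with bars of 1 SE from limma); the grey band spans the 5th to the 95th percentile of all 14911 genes, -0.74 to 0.76. The 8 genes that fell lie to the left of the band and Il7r lies within it.

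Because every T cell carries the CD3 complex, each gene was also set against Cd3e in the same library. Il7r minus Cd3e was 1.47 to 2.38 log2 units in saline libraries and 3.44 to 5.25 in dexamethasone libraries, a difference of 2.36. Its exact permutation p was 0.0014, the smallest that 715 splits can give, or 0.0112 after Benjamini-Hochberg adjustment over the 8 genes. That separation follows from the fall of Cd3e and the rise of Il7r, so its p adds no support to the single-gene results. Cd3d minus Cd3e differed between the groups by -1.10 (limma adjusted p = 0.0311), but its exact permutation p was 0.0545, or 0.218 after Benjamini-Hochberg adjustment over the 8 genes. With 1 added to CPM the difference of Cd3d from Cd3e was -0.0092 (limma adjusted p = 0.959). The voom fit of recovered reads gave an adjusted p of 0.0712. The limma call of Cd3d also ended without saline replicate 1, 2 or 3 or dexamethasone replicate 1 or 8. With 1 added to CPM, limma called Cd4 (-0.96), Lck (-0.53) and Foxp3 (0.67) as different from Cd3e. Foxp3 was also called without an intensity trend (limma adjusted p = 0.0196) or without dexamethasone replicate 1, and Cd4 without dexamethasone replicate 4 or 5. The remaining 6 genes differed from Cd3e by -0.58 (Cd4) to 0.77 (Foxp3), with exact permutation p from 0.105 to 0.445. Higher than Cd3e is the common case, since in that fit 97.4% of all other genes were called higher and 0.107% lower, and the noise of Cd3e enters every difference.

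The opposite movement changed the make-up of the signal. Il7r gave 17.4%, 16.8%, 27.5% and 21.4% of the summed CPM of the 9 genes in saline replicates 1, 2, 3 and 5, and 49.9% to 69.3% with a median of 60.7% in dexamethasone libraries. The other 8 genes summed to 27.8 to 39.3 CPM in saline and 5.71 to 10.7 in dexamethasone. Il7r exceeded the mean of the CD3 genes by 2.12 ± 0.43 log2 units in saline (SD, n = 4) and by 4.95 ± 0.47 in dexamethasone (SD, n = 9). These sums and differences follow from the single changes above and are given with no test.

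**Figure D3:**
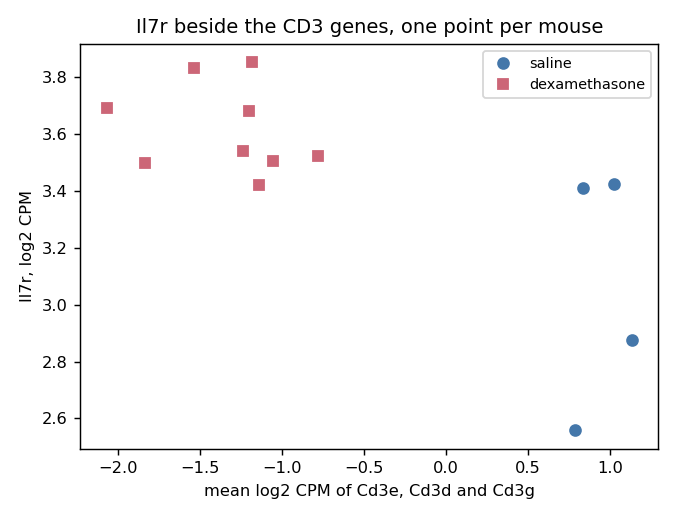
Il7r in log2 CPM (vertical axis) against the mean log2 CPM of Cd3e, Cd3d and Cd3g (horizontal axis), 1 point per mouse. The 9 dexamethasone mice sit at the upper left, and the 4 saline mice at the right, with saline replicates 3 and 5 near the lowest dexamethasone level of Il7r.

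Levels can be ordered between genes only per length. In CPM per kilobase of merged exons (GENCODE M21), saline muscle held Cd4 at 2.99 ± 1.19, Zap70 at 2.01 ± 0.09, Il7r at 1.85 ± 0.52 and Lck at 1.81 ± 0.42 (SD, n = 4). Cd8a followed at 0.79 ± 0.28, Cd3d at 0.77 ± 0.11, Cd3g at 0.65 ± 0.05, Cd3e at 0.58 ± 0.09 and Foxp3 at 0.15 ± 0.04. The ranges of neighbours in that order overlapped, except those of Lck and Cd8a and of Cd3e and Foxp3. In dexamethasone muscle Il7r stood first at 2.64 ± 0.29, above Zap70 at 0.70 ± 0.10, Cd4 at 0.58 ± 0.20 and Lck at 0.41 ± 0.14 (SD, n = 9). The CD3 genes and Cd8a lay between 0.109 and 0.172 there, and Foxp3 was last at 0.076 ± 0.032; only Il7r was separated from its neighbour. Merged exons count parts that a transcript may not hold, so these levels are approximate.

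Between mice of a group the genes did not all move together. After the group means were subtracted, Pearson's r over the 13 libraries was 0.71 between Cd3d and Cd3g, 0.63 between Cd3g and Cd8a and 0.57 between Cd3d and Cd4. Cd3e stood apart from its neighbours, at 0.01 with Cd3d and -0.12 with Cd3g, and Zap70 and Il7r were at most 0.41 and 0.35 with any of the 9. These values share libraries and rest on 2 to 47 reads for Cd3d, so they are a description. Of 13399 genes with a mean of at least 0 log2 CPM, the 10 closest to the mean of the CD3 genes on that measure were Snx32 (0.92), Pou2af1 (0.89), Cd79b (0.87), Limk2 and Dnaic1 (both 0.86), Vps39 and Rnls (both 0.85), Glt8d2 (0.84), Lpar5 and Hyi (both 0.83). Pou2af1, a B cell transcriptional coactivator, and Cd79b, a subunit of the B cell receptor, are lymphocyte genes. Cd4 ranked 103rd on that measure and Il7r stood at -0.087.

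Other parts of the receptor fell too. Of the remaining receptor chains and coreceptors listed, 3 of 10 were among the genes with values. All 3 were lower, against 22.9% called lower over all genes. Trbc2, a constant region of the beta chain with a near-identical copy in the genome, stood at 1.61 ± 0.39 log2 CPM in saline (SD, n = 4) and -0.79 ± 0.32 in dexamethasone (SD, n = 9; limma adjusted p = 7.06e-07). Cd8b1, the partner of Cd8a, fell by 2.66 on the log2 scale (adjusted p = 0.00625) and had 0 reads in dexamethasone replicate 4. Cd247, the zeta chain shared with natural killer cells, fell by 0.84 (adjusted p = 0.00321), a smaller change than those of the CD3 genes, although that difference was not tested.

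Downstream of the receptor, 8 of 17 measured kinases, adaptors and enzymes were lower, 1 was higher and 8 did not pass. Over all genes 22.9% were called lower and 25.2% higher. The 17 had a median log2 fold change of -0.15. Lat, an adaptor that ZAP-70 phosphorylates, and Grap2, an adaptor that binds SLP-76, had log2 fold changes of -1.68 and -1.97. The Tec family kinase Txk had -2.09, and Rasgrp1, which activates Ras, -1.01. The 8 that did not pass were Lcp2, which encodes SLP-76, Fyn, Prkcq, Vav1, Bcl10, Malt1, Nfatc1 and Nfatc2, with log2 fold changes from -0.20 to 0.20. Several of these are also used by other leukocytes or by muscle. Nfatc3, the 1 called higher, stood at 0.17, and 3 genes were called higher without saline replicate 5 and 2 without dexamethasone replicate 4.

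Of 13 genes that restrain the signal, 5 were lower and 3 higher, against 22.9% lower and 25.2% higher over all genes. The 13 had a median log2 fold change of -0.093. The related regulators Ubash3a, found mainly in lymphocytes, and Ubash3b, of wider expression, moved apart, by -2.47 (adjusted p = 6.19e-05) and 1.19 (adjusted p = 2.77e-07). The adaptor Sla (-0.59) and the lipid kinase Dgka (-0.35) were lower too.

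Costimulatory, adhesion and checkpoint receptors were lower in 12 of 14 cases, with a median of -0.96. The shares over all genes were 22.9% lower and 25.2% higher. Cd5 and Cd6, scavenger-type receptors of T cells, had log2 fold changes of -2.18 and -2.08, Cd96 -2.02 and the inhibitory receptor Btla -1.11. Havcr2, also a receptor of macrophages and dendritic cells, was the 1 called higher, at 0.34 (limma adjusted p = 0.0485). That call ended in 14 of 22 alternatives. Among these were the fits without saline replicate 1 or 2 or dexamethasone replicate 1, 2, 4, 5, 6 or 9.

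Of 11 genes of naive and recirculating lymphocytes 4 were lower and 1 higher, against 22.9% lower and 25.2% higher over all genes. With the replicate number as a block over 8 libraries 7 of the 11 were lower. Among genes with a mean of at least 0 log2 CPM, 2 of the list were lower. Ccr7, the receptor that guides naive cells to lymph nodes, fell by 1.70 on the log2 scale. The T cell transcription factors Lef1 and Bcl11b had log2 fold changes of -1.54 and -2.28, while Foxp1 rose by 0.44. Foxp1 had 811 to 1761 reads per library, against 6 to 61 for Bcl11b and 7 to 51 for Lef1. Of 15 regulatory and helper state genes 5 were lower, 3 higher and 7 did not pass, to be read against the same shares of all genes. Cxcr5, of follicular helper T cells and B cells, fell by 1.07 and Bcl6 fell by 0.55. Bcl6 had 1625 to 2790 reads per library, against 21 to 109 for Cxcr5. The part of T cells in the changes of Foxp1 and Bcl6 was not tested. Lrrc32, which vessels also use, rose by 0.79.

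Of 12 partners of Il7r, 4 rose and 1 fell, against 25.2% called higher and 22.9% lower over all genes. The 12 had a median log2 fold change of 0.16, and 2 of them rose over the 8 libraries with shared numbers. They summed to 642 to 731 CPM in saline and 748 to 778 in dexamethasone libraries, ranges that did not overlap. Abundant genes weigh most in that sum, such as Stat5b with means of 7.48 log2 CPM in saline and 7.78 in dexamethasone. Of the 12, 3 had every dexamethasone library above every saline library, as 12.9% of all genes did. Cish, a feedback inhibitor induced by STAT5, rose by 1.38 (adjusted p = 0.00157), Jak3 by 0.27 and Stat5b by 0.29. The groups of Stat5b overlapped. Over the 8 libraries it missed the threshold with the replicate block (limma adjusted p = 0.0633) and without it (0.0882). Jak3 had 560 to 1075 and Stat5b 4539 to 8259 reads per library, against 9 to 89 for Cd3e. The part of T cells in these rises was not tested. Tslp, a cytokine that also signals through IL-7R alpha, fell by 0.77. The shared gamma chain Il2rg (log2 fold change -0.056, adjusted p = 0.709) and the ligand Il7 (0.45, adjusted p = 0.142) did not pass. Among 12 glucocorticoid-responsive and death genes 4 were lower and 4 higher, to be read against the same shares of all genes. Their log2 fold changes ran from -0.74 to 0.59 with a median of 0.088. Those named here are all among the 4 lower. The count of higher genes was 1 without saline replicate 1 or 2. Bmf and Bbc3, which encode killers of the BCL-2 family, both fell by 0.66. Tsc22d3, a textbook target induced by glucocorticoids, fell by 0.74, with dexamethasone replicate 4 at 7.89 log2 CPM within the saline range.

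**Figure D4:**
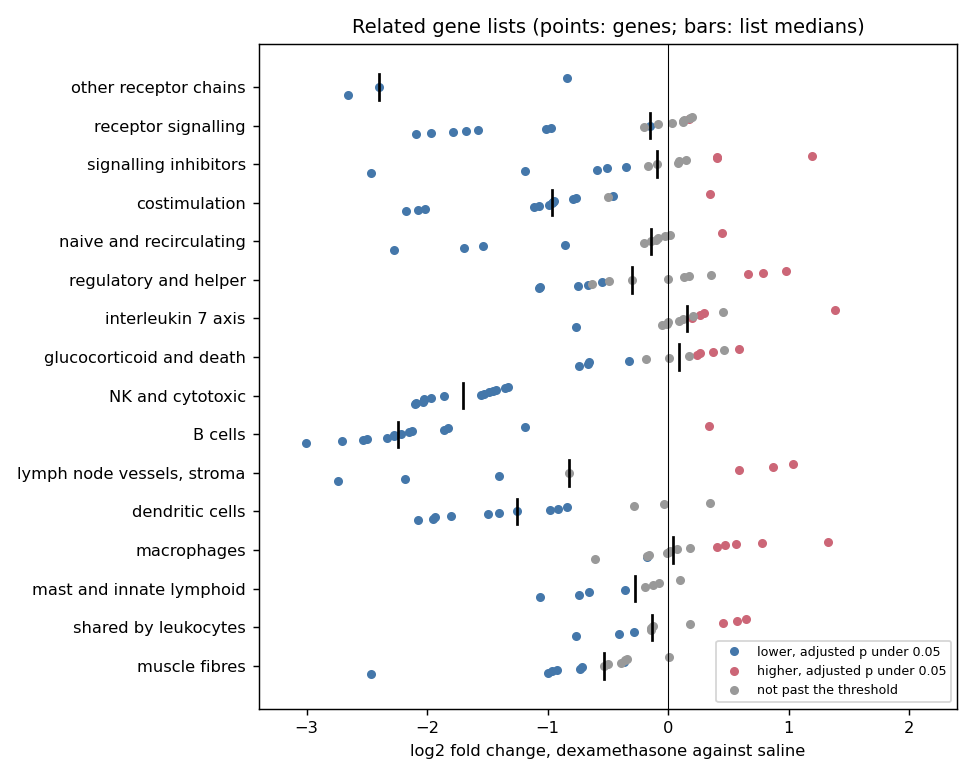
Log2 fold change of dexamethasone against saline for every measured gene of 16 related lists (points, coloured by the limma call at an adjusted p of 0.05) with the median of each list (black bar). Lists of B cells, natural killer cells and dendritic cells lie mostly to the left, as the T cell genes did, and macrophage genes lie around 0.

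Markers of other lymphocytes moved with the T cell genes. The counts in this paragraph are to be read against 22.9% called lower and 25.2% higher over all genes. Of 14 B cell markers, 13 were lower and 1, Ebf1, which stromal cells also use, was higher. The 14 summed to 130 to 189 CPM in saline and 42.1 to 76.5 in dexamethasone libraries. All 14 measured markers of natural killer and cytotoxic cells were lower, their sum going from 24.5 to 38.7 CPM in saline to 4.54 to 12.8. The B cell gene Cr2 fell by 2.71 and the natural killer receptor gene Klrk1 fell by 2.04. Dendritic cell markers were lower in 10 of 13 cases, their sum being 866 to 1289 CPM in saline and 196 to 390 in dexamethasone. Most of that sum came from the antigen presentation genes H2-Ab1, H2-Aa and H2-Eb1, with saline means of 8.33, 8.44 and 8.17 log2 CPM. These are not confined to dendritic cells, so the sum is not a level of dendritic cells. H2-Aa fell by 1.94. Several natural killer markers, such as Nkg7, Ccl5 and Il2rb, are also carried by T cells, and the part of B, natural killer and dendritic cells in the falls of Cd4, Cd8a, Lck and Zap70 was not tested.

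Genes of lymph node vessels and stroma were examined as markers of lymph node tissue. Of 7 measured ones 3 were lower, 3 higher and 1 did not pass, against 22.9% lower and 25.2% higher over all genes. The 7 summed to 38.7 to 52.4 CPM in saline and 27.3 to 43.1 in dexamethasone. Glycam1, a mucin of the vessels through which lymphocytes enter nodes, was present in every library and fell by 2.74 (adjusted p = 4.42e-06), and Ltb, which lymphocytes make, fell by 2.18. Cxcl13 and Chst2 were 1.04 and 0.87 higher, though Cxcl13 missed the threshold in 11 of 22 alternatives. Ccl21a, Ccl21b, Ccl19, Madcam1 and Chst4 were not among the genes with values here. The part of lymph node tissue in the falls of the T cell genes was not tested.

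Macrophage markers and genes shared by leukocytes went both ways, at counts to be read against 22.9% lower and 25.2% higher over all genes. Of 14 macrophage and monocyte markers 5 rose and 1 was called lower, their sum being 2191 to 3204 CPM in saline and 2631 to 3450 in dexamethasone; Mrc1 rose by 1.32 and Itgam by 0.78. The count of macrophage genes called lower ranged from 0 to 3 with single libraries left out, 3 being without saline replicate 1. Genes shared by most leukocytes summed to 668 to 1037 CPM and 828 to 935 CPM, with 3 higher and 3 lower of 10, or 6 lower without saline replicate 1. Of 8 measured mast cell and innate lymphoid markers, 4 were lower and 0 higher. The 4 were the mast cell protease genes Mcpt4, Cma1 and Tpsb2, and Zbtb16. Klrg1, Il5 and Il13 were not among the genes with values here, and the part of innate lymphoid cells in the rise of Il7r was not tested. Muscle fibre genes, which define the tissue, summed to 117923 to 169319 CPM in saline and 70129 to 105234 in dexamethasone, with 7 of 13 lower, or 11 without an intensity trend, with robust priors or with voom, so the sampled tissue was muscle in every library and its fibre RNA differed between the groups as well. The part of that shift in the values of the T cell genes was not tested.

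Total reads recovered from the deposited values were 25531487 to 32537345 in saline and 28021111 to 34942266 in dexamethasone libraries and overlapped between the groups. At this depth Cd3d and Foxp3 rest on fewer than 50 reads in every library, and for Cd3d in dexamethasone mice on at most 11. With 1 added to CPM before the logarithm, the log2 fold changes shrank to -0.99 for Cd3e, -1.0 for Cd3d, -1.08 for Cd3g, -1.24 for Cd8a, -1.52 for Lck and -0.32 for Foxp3, all still past the threshold.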

How the data were processed

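Whole hamstring muscle was sequenced from 13 mice, 4 saline and 9 dexamethasone, grouped by the labels. Libraries were stranded and made from oligo-dT-selected RNA, per the labels' protocols. The build mm10, featureCounts 2.0.1 and limma 3.50.1 are named in the submitters' processing notes. Aligner, annotation and any filter were not given in the sources used here. Values are log2 CPM per mouse as deposited by the authors, whose tables also hold log2 fold changes and p-values. Their deposited table gave the same direction for all 9 genes, with Cd3e at -1.79 and Il7r at 0.53. Undoing the logarithm, the 0.5 read offset and the effective library size gave whole reads, to within 0.01, for 100% of values. The column of the excluded saline mouse, 1 in number, was not used.

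Groups were compared with limma 3.58.1 (R 4.3.3) on the deposited log2 CPM of 14911 genes, with an intensity trend, two-sided, and Benjamini-Hochberg adjustment at 0.05. Single values were compared by exact permutation over all splits into 4 and 9. Differences from Cd3e were fitted in limma over all other genes, and the exact test of them was added after seeing the data. The fit was tested on simulated data for this comparison over 14911 genes: 88 of 100 low genes changed by -2 on the log2 scale and 45 of 100 changed by -1 were recovered, with 4 false of 137 calls. Only those low genes were changed there, with normally distributed noise, whereas 48.1% of all genes were called in the data. The recovery and false call rates therefore do not carry over to the real comparison. Between 42 pairs of libraries of a group the chi-square per gene was at least 7.22, so each counted as 1 sample.

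The genes and the 16 related lists were chosen with earlier results of these data known, and some lists share genes. Named genes were all 9 genes, up to 4 per list of smallest adjusted p, and the defining B cell and lymph node genes. Lcp2, Fyn, Prkcq, Vav1, Bcl10, Malt1, Nfatc1, Nfatc2, Nfatc3, Havcr2, Il2rg, Il7 and Nkg7 fall outside that rule and were chosen after their values were seen. Some genes that the rule names are not reported here. Promoters came from RefSeq, matched by Entrez identifier, and coordinates from RefSeq through the same identifiers, matched for 14909 genes. Alternatives were the table normalised with the excluded mouse, log2 of CPM plus 1, a filter at a mean of 0 log2 CPM, other moderation, voom on recovered reads, median centring, the mouse number as a block and each library left out. Figures were drawn with matplotlib 3.10.9.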

Additional observations from a re-analysis of the deposited data

Results flagged for a closer look

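A test for a single library far from the rest of its group was made on 188 groups of values, of which chance flags about 1 in 20, and 16 stood out. Among the 9 genes it was Cd8a alone, at -3.11 log2 CPM in dexamethasone replicate 8 against -0.97 to 0.15 in the others. Ltb was lowest in the same library, at -2.22 against -0.52 to 0.74.

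Dexamethasone replicate 4 gave 12 of the 16. It was lowest for Cd8b1 at -5.81 (0 reads), Klrk1 at -1.56, H2-Ab1 at 5.78, H2-Eb1 at 5.29, H2-Aa at 5.48, Cd52 at 4.26, Nr3c1 at 6.15, Actc1 at 8.77 and Dnaic1 at -1.28 log2 CPM. It was highest for Tsc22d3 at 7.89, Zbtb16 at 6.38 and Cxcl13 at 4.09. Without it 8 of the 9 T cell genes were still lower and Il7r still higher.

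In saline replicate 1 Txk was lowest at -0.56 against -0.054 to -0.0035 in the other saline libraries, and Cr2 at 1.21 against 1.77 to 1.89.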

How the results depend on the processing

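No result changed direction while past the threshold. The 9 genes kept their calls in every alternative tested, apart from Foxp3 in the leave-one-out fits given with its values, and apart from the filter at a mean of 0 log2 CPM, which left only Cd4, Lck, Zap70 and Il7r to test, 3 of them called lower. With single libraries left out, 7 to 8 genes were lower and 6306 to 7173 of all genes were called. Relative to Cd3e 2 genes were called, 4 with log2 of CPM plus 1, 1 with the filter, 1 with voom and 1 by exact permutation, 3 without an intensity trend, and 1 to 3 with single libraries left out. Cd4 minus Cd8a was -0.72 (exact permutation p = 0.00839) with log2 of CPM plus 1 and -0.298 to 0.0958 with single libraries left out; the cause was not tested. Among related lists, the filter left 8 B cell, 6 costimulatory, 4 natural killer, 5 receptor signalling, 3 restraining and 1 receptor chain gene called lower, with fewer genes tested. Median centring gave 3449 higher and 3710 lower genes in place of 3760 and 3413.

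Mouse numbers shared by the groups did not pair the libraries: correlations of their deviations were -0.011, -0.11, -0.037 and 0.17, and 1 of 4 saline libraries matched its own number best. With the replicate number as a block over those 8 libraries 8 of the 9 genes were lower, as without it, 2 and 2 genes were called relative to Cd3e, and 5959 of all genes were called against 6124 without the block. Il7r was 0.60 higher with the block (adjusted p = 0.0454), the largest adjusted p of its 22 alternatives. Counting error limits Cd3d and Foxp3 most.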
